A study of Mus musculus with 12 samples.

Results

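The comparison covered the RNA of E14 mouse embryonic stem cells labelled as Bcat1 knockout, from 2 clones pooled as 1 genotype, against wild type (WT). Its members were the 4 libraries titled as clone 1 or clone 2 and the 2 titled as WT, 6 of the 12 samples of the series, and all 14946 genes with enough counts were tested. E14 is an established line from a male mouse embryo. All groups had the same E14 background and were grown in serum with non-essential amino acids, LIF and a pair of kinase inhibitors called 2i, with no other treatment. The 2 WT libraries carry the label WT, the 2 libraries of clone 1 and the 2 of clone 2 carry the label Bcat1-KO, and the way the knockout was made is not given in the sources used here. The 4 libraries labelled knockout come from only 2 clones and are not 4 independent replicates. Nothing in the labels says that replicates were separate cultures, so the p-values cover only how these libraries vary among themselves, and that variation may be technical. The other 6 samples, a time course out of 2i and LIF, were not analysed here.

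Bcat1 encodes the cytosolic branched-chain aminotransferase, which moves the amino group of leucine, isoleucine or valine to alpha-ketoglutarate and so makes glutamate and a branched-chain keto acid. Alpha-ketoglutarate is also the co-substrate of the TET enzymes and of many histone demethylases. Embryonic stem cells grown with LIF and 2i keep a network of pluripotency factors active. Known means of silencing germ cell genes include promoter DNA methylation and a polycomb complex that contains MAX and MGA. The title of the series names Ras signalling beside pluripotency and self-renewal.

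Gene counts per library totalled 11976149 to 13923262. The stem cell genes Pou5f1, Sox2, Nanog, Zfp42 and Esrrb stood at 339 to 877 CPM (counts scaled to library size) in every library, and none of the 5 passed the test between genotypes. Of 19 fibroblast and feeder cell genes, 9 were tested, 6 were at 0 counts in every library (Postn, Lum, Dcn, S100a4, Acta2 and Twist2), and the tested ones summed to 48.1 to 49.3 CPM in WT and 40.7 to 73.3 CPM in the libraries labelled knockout. Others were counted in every library, among them Pdgfrb (212 to 319 counts), Col5a1 (141 to 268 counts) and Mmp2, which had 159 and 137 counts in clone 1 against 27 to 50 in the other libraries. Of 8 blood cell genes, 4 were at 0 everywhere (Ptprc, Lyz2, Hbb-bt and Hba-a1), while Cd68 had 258 to 353 counts in every library, and Cd3e 15 and 23 counts in clone 1 against 1 to 3 elsewhere. Of both lists only Col1a2 was called for genotype, and the part of other cell types in the results was not tested. The 5 tested coding genes of chromosome Y summed to 1.47 and 1.99 CPM in WT, 0.476 and 0.23 CPM in clone 1, and 113 and 110 CPM in clone 2. In these genes WT and clone 1 were thus low and clone 2 was not, although the line is male. The part of this difference in the results was not tested. Values for each clone are given beside the pooled ones for this reason.

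Bcat1 RNA did not check the labels. Bcat1 (chromosome 6, 144993835 to 145076184, minus strand, GRCm38) stood at 602 and 614 CPM in WT, 617 and 662 CPM in clone 1, and 583 and 579 CPM in clone 2. The groups overlapped, with clone 1 above WT and clone 2 below it, and edgeR's quasi-likelihood test gave an adjusted p of 0.977 for a log2 fold change of 0.01 ± 0.08 (SE). Bcat2, which encodes the mitochondrial form of the enzyme, stood at 59.9 and 65.0 CPM in WT, 56.8 and 67.5 CPM in clone 1, and 68.8 and 67.3 CPM in clone 2. Its groups overlapped too, with a log2 fold change of 0.06 ± 0.10 and an edgeR adjusted p of 0.79. A total gene count cannot show a small insertion or deletion, so every direction below rests on the label knockout.

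Rises outnumbered falls in the libraries labelled knockout, and the higher genes moved farther. Of 14946 genes tested, 951 (6.36%) passed edgeR's test at an adjusted p of 0.05, 635 (4.25%) of them higher under the knockout label and 316 (2.11%) lower. The higher genes had a median log2 fold change of 1.10 and 350 of them exceeded a 2-fold change, 145 a 4-fold change. The lower genes had a median of -0.65, with 78 beyond 2-fold and 21 beyond 4-fold, and over all tested genes the median was 0.00. Setting the 11 higher genes and the 1 lower gene that had 0 counts in one group to their bounds left these medians and fold counts as they are. CPM is not scaled to gene length, so it shows how well a gene was counted, not its level against other genes. The median mean CPM was 13.6 for the higher genes and 46.3 for the lower ones. Among 2386 tested genes with a mean of 100 CPM or more, 44 were higher and 88 lower, whereas of 4466 from 1 to 10 CPM 237 were higher and 50 lower. The mean is over all 6 libraries, so a change itself moves a gene between these classes. Protein-coding genes made up 607 of the higher and 298 of the lower genes, 4.77% and 2.34% of the 12730 tested. Of 296 tested long intergenic RNAs, 11 (3.72%) were higher and 6 (2.03%) lower, shares near those of all genes tested.

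**Figure D1:**
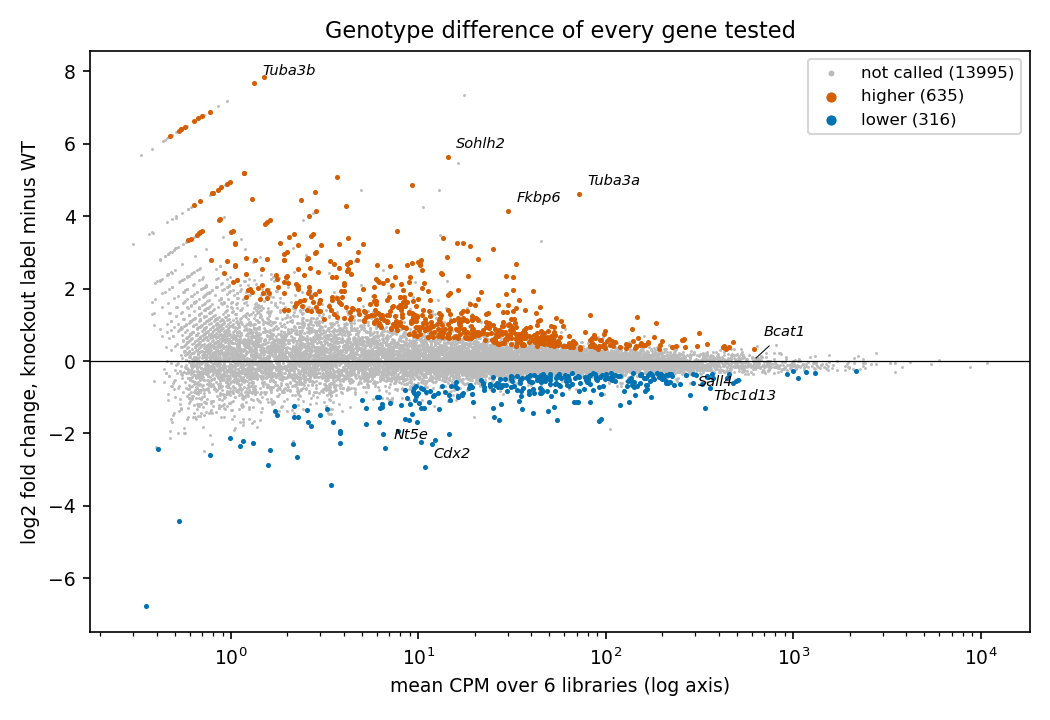
Each point is 1 of 14946 genes, with its mean CPM over 6 libraries on a log axis and its log2 fold change, libraries labelled knockout minus WT, on the vertical axis. The 635 genes called higher reach larger changes than the 316 called lower, and Bcat1 lies on the line of no change.

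Both clones lay on the same side of WT in every gene called for genotype. The pooled test counts the difference between clones as spread, so genes in which the clones disagree seldom pass. This agreement is therefore fixed in part by the test. In all 951 genes each of the 4 libraries labelled knockout lay beyond both WT libraries, a pattern found in 35.0% of all tested genes. Each of the 951 was also called on that side when clone 1 and clone 2 were compared with WT one at a time. Those contrasts called 21.9% of all genes in clone 1 (12.4% higher, 9.53% lower) and 17.9% in clone 2 (10.1% higher, 7.81% lower). They share the WT libraries with the pooled comparison, so they are not separate evidence. The contrast of clone 2 with clone 1, which uses no WT library, called 142 of the 951 genes (14.9%) and 14.3% of all genes. Among these 142 genes, 99 were higher than WT, with clone 1 farther from WT in 53 and clone 2 in 46, and 43 were lower, with clone 1 farther in 17 and clone 2 in 26. In 60 genes (0.401%) the clones were called in opposite directions, and edgeR's pooled test called 0 of these. That 0 too follows in part from how the pooled test counts spread. The count of 142 rests on both libraries of clone 2, since it was 58 without the first replicate of that clone and 57 without the second.

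The total rests on both WT libraries, since 78 genes were called without WT replicate 1 and 75 without WT replicate 2. In each of these fits a single WT library is left, whose spread is taken from the other groups. Across the fits without 1 of the knockout-labelled libraries, 767 to 935 genes were called. With the 2 libraries of each clone summed into 1, so that clones count as the replicates, 455 were called, of which 447 were among the 951. A set of 54 genes (0.361% of those tested), 37 higher and 17 lower, was called in the pooled comparison and in all 6 fits with 1 library left out, and these 54 were also called under every other setting tried.

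The largest rises among these 54 genes, with predicted genes passed over, were in Tuba3b, Pkd2l1, Tuba3a, Fkbp6, Sash3, Pramef17, Dazl, Cdkn2a, Calb2 and Gli1. The list of germ cell regulators holds 4 of them, Tuba3a, Tuba3b, Fkbp6 and Dazl. In bulk RNA, more cells with a transcript and more transcript per cell cannot be told apart. Tuba3b (chromosome 6, 145615757 to 145621479), a testis alpha-tubulin, had 0 counts in both WT libraries and 1.74 and 2.22 CPM in clone 1 and 2.28 and 1.74 CPM in clone 2. Against a floor of 3 counts over the WT group it was at least 17.6-fold higher. Its near-identical copy Tuba3a rose from 4.78 and 3.77 CPM to 122 and 141 CPM in clone 1 and 76.8 and 81.8 CPM in clone 2, though the counts cannot separate such similar copies well. Fkbp6, a co-chaperone needed for male meiosis and piRNA loading, had the smallest p of all genes in this set. It stood at 2.78 and 2.14 CPM in WT, 41.2 and 41.3 CPM in clone 1, and 44.1 and 48.9 CPM in clone 2, a log2 fold change of 4.15 ± 0.17 with an edgeR adjusted p of 8.26e-06. With the libraries of each clone summed, so that clones count as the replicates, its edgeR adjusted p was 0.000555. All 4 libraries labelled knockout lay far above WT, and the clones did not differ by the test (adjusted p 0.367).

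Dazl, which binds and regulates germ cell mRNAs, stood at 2.62 and 2.14 CPM in WT, 27.1 and 22.2 CPM in clone 1, and 19.8 and 22.4 CPM in clone 2, a log2 fold change of 3.26 ± 0.21. Pkd2l1, a cation channel of the polycystin family, went from 0.463 and 0.443 CPM to between 10.2 and 17.0 CPM, with a log2 fold change of 4.87 ± 0.34. The cell cycle inhibitor gene Cdkn2a, which encodes INK4A and ARF, went from 3.39 and 2.51 CPM to 20.8 and 27.5 CPM in clone 1 and 29.3 and 29.5 CPM in clone 2. In these 3 genes both clones lay far above WT. Gli1, a transcription factor and target of Hedgehog signalling, stood at 2.01 and 2.14 CPM in WT against 9.83 to 18.0 CPM. Calb2, the calcium-binding protein calretinin, stood at 5.71 and 2.66 CPM in WT against 23.8 to 33.2 CPM. Sash3, an adaptor known from lymphocytes, and Pramef17, a member of the PRAME family, had log2 fold changes of 4.14 ± 0.45 and 3.59 ± 0.29. With the libraries of each clone summed, the edgeR adjusted p of the 10 largest rises was 0.0206 or less. Each of these 10 genes had an edgeR adjusted p of 0.00278 or less, and the largest adjusted p of any over all alternatives was 0.0486, for Tuba3b without WT replicate 2.

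The largest falls in the same set, again with predicted genes passed over, began with Nt5e. Nt5e, the cell surface enzyme that makes adenosine, stood at 14 and 14.9 CPM in WT, 3.33 and 3.45 CPM in clone 1, and 2.36 and 1.82 CPM in clone 2, a log2 fold change of -2.39 ± 0.25. The aldehyde oxidase gene Aox3 went from 24.0 and 27.1 CPM to between 4.74 and 6.84 CPM (-2.19 ± 0.17). Abca1, which exports cholesterol from cells, went from 29.3 and 29.0 CPM to between 5.14 and 8.28 CPM (-2.02 ± 0.19). None of the 4 libraries labelled knockout came near WT in these genes. Lefty2, a secreted inhibitor of Nodal, stood at 40.0 and 42.2 CPM in WT, 17.7 and 16.3 CPM in clone 1, and 17.5 and 15.3 CPM in clone 2. Grb10, an imprinted adaptor that dampens insulin signalling, stood at 70.9 and 69.7 CPM in WT, 23.6 and 20.9 CPM in clone 1, and 31.7 and 28.9 CPM in clone 2, and it was the only one of these 10 genes in which the clones differed by the test (adjusted p 0.0177). The cytochrome P450 gene Cyp2b23, the pentose phosphate epimerase gene Rpe, and Spata2, Zbtb10 and Ptpn1 had log2 fold changes from -1.32 to -1.13. Ptpn1 encodes a tyrosine phosphatase that acts on the insulin receptor, Spata2 an adaptor of the deubiquitinase CYLD and Zbtb10 a zinc finger protein. With the libraries of each clone summed, the edgeR adjusted p of the 10 largest falls was 0.0104 or less. The edgeR adjusted p of these 10 genes was 0.00114 or less, and at most 0.044 over all alternatives.

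**Figure D2:**
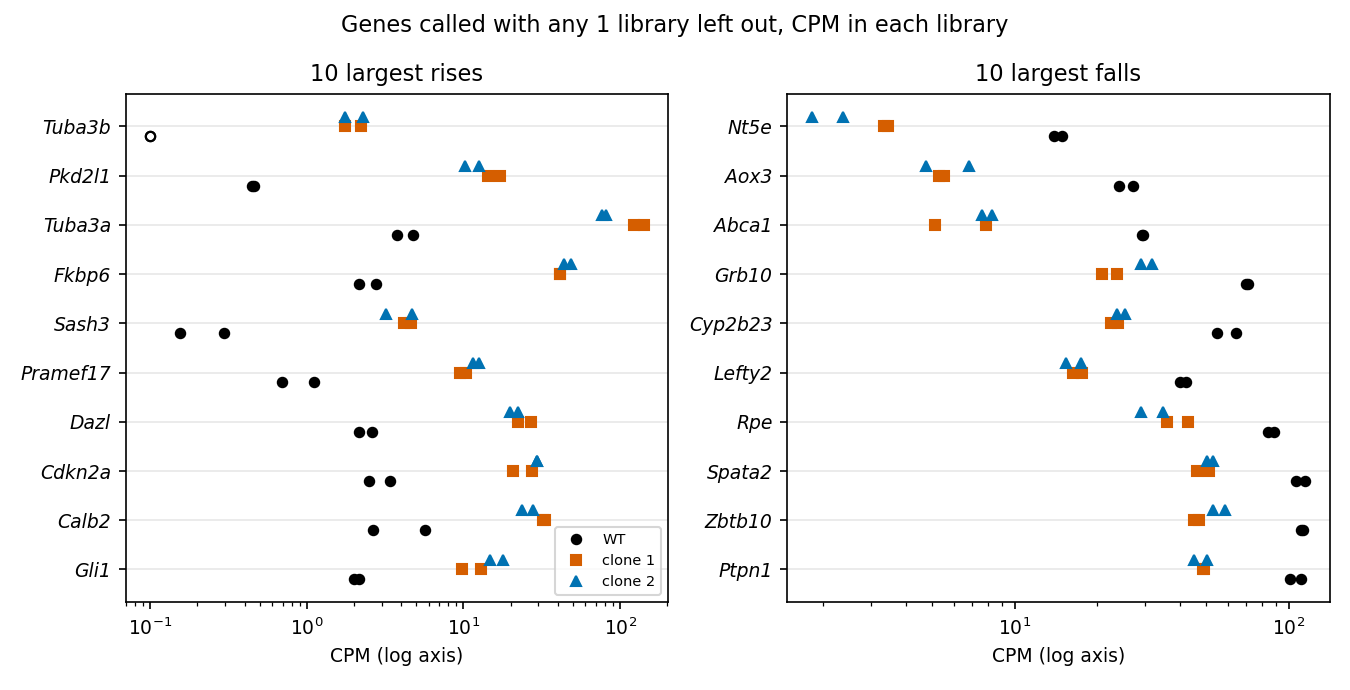
CPM on a log axis in each of the 6 libraries for the 10 largest rises and 10 largest falls among genes called with any 1 library left out, with predicted genes (Gm13128 at 3.25 and Gm10800 at -3.42) passed over. The open circle marks Tuba3b at 0 in WT, drawn at the left edge, and in every gene the 4 libraries labelled knockout lie on one side of both WT libraries.

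The promoters of the 4 germ cell regulators among these rises are shown because the known repressors of germ cell genes bind E-box and E2F motifs and promoter CpG sites. Each window holds 300 bases around a start of transcription in RefSeq on GRCm38.p6, 5′ to 3′ on the gene's strand. The GENCODE start of Tuba3b given above lies nearer the 5′ end of its window, so that most of this window, its E2F motif included, lies inside the gene as GENCODE has it. Fkbp6 lies at chr5:135349995-135350294 (minus), Tuba3a at chr6:125286032-125286331 (minus), Tuba3b at chr6:145615713-145616012 (plus) and Dazl at chr17:50293571-50293870 (minus). Capitals mark the E-box CACGTG, which reads the same on both strands, and the E2F motif TCCCGC with its reverse complement GCGGGA.
Fkbp6: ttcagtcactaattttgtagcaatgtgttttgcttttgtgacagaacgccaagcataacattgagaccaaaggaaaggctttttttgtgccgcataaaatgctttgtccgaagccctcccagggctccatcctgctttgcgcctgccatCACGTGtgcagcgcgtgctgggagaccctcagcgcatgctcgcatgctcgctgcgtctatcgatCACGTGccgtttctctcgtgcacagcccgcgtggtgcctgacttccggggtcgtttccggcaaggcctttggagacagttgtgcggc
Tuba3a: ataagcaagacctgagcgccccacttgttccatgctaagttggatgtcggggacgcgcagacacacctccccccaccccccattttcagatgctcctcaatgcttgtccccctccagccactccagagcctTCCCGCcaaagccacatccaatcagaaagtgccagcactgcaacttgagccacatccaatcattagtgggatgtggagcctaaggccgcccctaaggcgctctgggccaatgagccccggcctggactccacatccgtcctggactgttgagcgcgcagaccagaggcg
Tuba3b: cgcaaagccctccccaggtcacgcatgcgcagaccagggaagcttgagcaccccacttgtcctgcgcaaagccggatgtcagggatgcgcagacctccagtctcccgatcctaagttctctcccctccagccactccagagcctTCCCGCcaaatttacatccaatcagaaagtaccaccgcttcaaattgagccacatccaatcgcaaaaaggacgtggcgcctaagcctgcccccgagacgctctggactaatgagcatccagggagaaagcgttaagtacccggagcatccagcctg
Dazl: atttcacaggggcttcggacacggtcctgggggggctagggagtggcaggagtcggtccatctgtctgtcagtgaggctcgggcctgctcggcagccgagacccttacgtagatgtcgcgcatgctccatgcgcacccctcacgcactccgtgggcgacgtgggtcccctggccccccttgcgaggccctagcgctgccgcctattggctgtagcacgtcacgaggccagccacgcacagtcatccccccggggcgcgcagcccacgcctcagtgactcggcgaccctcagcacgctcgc
The Fkbp6 window held 2 E-boxes and no E2F motif, those of Tuba3a and Tuba3b 1 E2F motif each and no E-box, and that of Dazl neither. A match describes the letters of the window and is not a bound site.

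In the list of germ cell regulators every call was a rise. Of 39 listed genes 26 were tested, and of these 13 (50%) were higher and 0 lower, against 4.25% and 2.11% of all genes tested, with a median log2 fold change of 1.55 (1.88 in clone 1, 1.37 in clone 2) against 0.00 for all genes. A gene near 0 in WT passes the filter only through the libraries labelled knockout, so this count describes the genes that passed and not the whole list. The same limit holds for the shares of the other lists. The list was also chosen with earlier results of these data known, so its share is not separate evidence. It holds both Tuba3a and its near-identical copy Tuba3b. The 13 were Fkbp6, Dazl, Tuba3a, Tuba3b, Prdm1, Sohlh2, Mov10l1, Taf7l, Tex19.1, Kit and the X-linked Tex13b, Rhox1 and Rhox13, and the first 5 of these were called with any 1 library left out. Sohlh2, a transcription factor of spermatogonia and oocytes, stood at 0.231 and 0.591 CPM in WT, 31.0 and 32.7 CPM in clone 1, and 11.0 and 10.4 CPM in clone 2. It was far above WT in both clones and higher in clone 1 than in clone 2. Rhox13 went from 2 counts over the WT libraries to 95 over the clones, a ratio of 25.1 with an exact 95% counting interval of 6.76 to 210, and Rhox genes have close copies. The 13 not called included Ddx4, Dnd1 and Dmrt1, with log2 fold changes of 0.61, 0.35 and 1.01 and edgeR adjusted p of 0.464, 0.409 and 0.0519.

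Of 20 tested piRNA genes 3 (15%) were higher and 0 lower, and of 25 tested meiotic genes 3 (12%) were higher and 1 (4%) lower, against 4.25% and 2.11% of all genes tested. Gpat2, a mitochondrial protein of the pathway, stood at 16.0 and 19.4 CPM in WT against 48.3, 46.3, 47.7 and 44.5 CPM (log2 fold change 1.40 ± 0.12, edgeR adjusted p 0.000361). Mov10l1, an RNA helicase that starts piRNA processing, stood at 1.62 and 1.70 CPM in WT, 11.8 and 9.82 CPM in clone 1, and 5.49 and 4.98 CPM in clone 2. The helicase gene Tdrd9 was the third. Among the meiotic genes, Hormad1, a protein of unsynapsed chromosome axes, stood at 3.24 and 2.36 CPM in WT, 12.2 and 13.8 CPM in clone 1, and 8.70 and 9.25 CPM in clone 2. Syce1, a part of the synaptonemal complex, rose by 1.56 ± 0.25 and Meioc, a regulator of meiotic RNA, by 1.41 ± 0.28 on the log2 scale, while the recombinase gene Dmc1 was the one that fell (-0.88, edgeR adjusted p 0.0429). Sohlh2, Mov10l1, Tdrd9, Hormad1, Syce1 and Meioc lost their calls without WT replicate 1 (edgeR adjusted p 0.0632 to 0.309) and without WT replicate 2 (0.0762 to 0.223). Tdrd9 also lost it without either replicate of clone 1 or without the second of clone 2, at 0.0655 to 0.0669, and Tdrd9 and Meioc lost it with the libraries of each clone summed (up to 0.0815).

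Over the 3 germline lists 18 different genes were higher, and all 18 had a promoter in the RefSeq table. An E-box was found in 5 of these windows (27.8%) and an E2F motif in 7 (38.9%). Among the 59 tested genes of the lists that had a promoter, the shares were 25.4% and 45.8%. Among all 10456 tested genes with a promoter they were 10.3% and 36.3%, and among all 27025 promoters held there 7.24% and 20%. The median CpG ratio, observed over expected, was 0.649 in the 18 windows and 0.759 over all tested genes. In all genes called, the higher ones held an E-box in 8.63% of windows with a median CpG ratio of 0.703, and the lower ones in 12.3% with a ratio of 0.748.

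Of 28 known silencing factors of germline genes 0 were higher and 1 (3.57%) was lower, shares near the 4.25% and 2.11% of all genes tested. The lower one was Max, the partner of MGA in the repressive complex, at 108 and 105 CPM in WT, 78.3 and 76.1 CPM in clone 1, and 80.8 and 83.0 CPM in clone 2. The median of the list was -0.01. Among 16 TET enzymes and subunits of polycomb repressive complex 2, Suz12 and Eed, both core subunits, were lower (12.5%) and none was higher. Suz12 stood at 400 and 353 CPM in WT, 230 and 222 CPM in clone 1, and 276 and 268 CPM in clone 2, and Eed at 239 and 217 CPM in WT against 173 to 187 CPM. For Ezh2, the methyltransferase subunit, the log2 fold change was 0.13 and the edgeR adjusted p 0.546, and the dioxygenase gene Tet1 0.10 and 0.6. The calls of Max, Suz12 and Eed were lost without WT replicate 1 (0.198 to 0.355) or WT replicate 2 (0.0938 to 0.148), and that of Eed also without either replicate of clone 2 (0.066 and 0.0712). Summing the libraries of each clone ended the calls of Max and Eed (up to 0.0877).

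Imprinted genes were called in both directions. Of 45 tested, 5 (11.1%) were higher and 1 (2.22%) lower, against 4.25% and 2.11% of all genes tested, with a median log2 fold change of 0.15. Mest, a hydrolase gene expressed from the paternal allele, stood at 12.7 and 13.6 CPM in WT, 46.7 and 38.0 CPM in clone 1, and 33.9 and 36.2 CPM in clone 2 (1.56 ± 0.15, edgeR adjusted p 0.000849). Zfp264 went from 3.86 and 3.03 CPM to 21.6 and 22.2 CPM in clone 1 and 15.2 and 13.9 CPM in clone 2. The noncoding RNA H19 reached at most 2.36 CPM, from 0.309 and 0.591 CPM in WT, and passed the filter only through the libraries labelled knockout. Ddc and Smoc1 were the other 2 higher genes, and Grb10, described above, the lower one. In the list of 24 tested long noncoding RNAs, Snhg11 and H19 were higher and Snhg14, the host transcript of snoRNAs next to Snrpn, was lower. Snhg11 stood at 15.0 and 12.7 CPM in WT against 35.8 to 54.6 CPM, and Snhg14 at 32.9 and 29.9 CPM against 13.5 to 22.9 CPM. Without WT replicate 2 none of Zfp264, H19, Snhg11 and Snhg14 was called (0.0524 to 0.228), and without WT replicate 1 H19 and Snhg14 were not (up to 0.343). Snhg14 also lost its call without either replicate of clone 1 (0.0525 and 0.0654), and H19 without either of clone 2 (0.0567 and 0.0627), and both were lost with the libraries of each clone summed (up to 0.0899).

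The called core and naive pluripotency genes were mostly lower. Of 12 core factors 3 (25%) were lower and 1 (8.33%) was higher, with a median of -0.22, and of 19 naive genes 4 (21.1%) were lower and 0 higher, with a median of -0.21. Of all genes tested, 2.11% were lower and 4.25% higher. Sall4, a zinc finger factor of pluripotent cells, stood at 405 and 415 CPM in WT, 195 and 221 CPM in clone 1, and 221 and 225 CPM in clone 2 (-0.93 ± 0.08, edgeR adjusted p 0.000419). Its relative Sall1 went the other way, from 81.1 and 76.2 CPM in WT to 150 and 147 CPM in clone 1 and 220 and 208 CPM in clone 2. Sall2, from the list of formative and primed genes, was higher as well, at 4.32 and 4.95 CPM in WT against 13.2 to 16.6 CPM (1.69 ± 0.19). Sall4 and Sall2 were called with any 1 library left out.

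Utf1, a chromatin factor of undifferentiated cells, stood at 191 and 193 CPM in WT, 86.8 and 134 CPM in clone 1, and 48.0 and 59.1 CPM in clone 2. All 4 libraries lay below WT, with the replicates of clone 1 wide apart and an edgeR adjusted p of 0.0488. Utf1 was not called by DESeq2 (adjusted p 0.114), with upper-quartile scaling (0.0573), a minimum fold of 1.2 (0.0946), a replicate block (0.0777) or the libraries of each clone summed (0.0668). Dppa2 was at 50.7 and 49.1 CPM in WT against 21.2 to 36.3 CPM. Of the naive genes, Manba, a lysosomal mannosidase, stood at 216 and 201 CPM in WT, 117 and 105 CPM in clone 1, and 81.5 and 80.2 CPM in clone 2. Tdh, the threonine dehydrogenase on which mouse stem cells depend, fell by 0.47 on the log2 scale, from 457 and 459 CPM to between 304 and 350 CPM. Gbx2, a homeobox factor, had a log2 fold change of -0.65 ± 0.12, from 33.9 and 33.4 CPM in WT, and Tbx3 was the fourth lower gene.

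Of 17 tested formative and primed genes 3 (17.6%) were higher and 2 (11.8%) lower, against 4.25% and 2.11% of all genes tested. Besides Sall2, Sox4 stood at 3.01 and 3.84 CPM in WT, 13.5 and 21.6 CPM in clone 1, and 8.11 and 12.3 CPM in clone 2. The ETS factor gene Etv4 was at 33.4 and 34.8 CPM in WT against 43.9 to 60.4 CPM, and Tcf15 was among the lower ones. Sall1, Dppa2, Utf1, Manba, Tdh, Gbx2, Sox4 and Etv4 lost their calls without WT replicate 1 (edgeR adjusted p 0.0808 to 0.304) and without WT replicate 2 (0.0527 to 0.28). Utf1 also lost it without the first replicate of clone 1 (0.069) or the second of clone 2 (0.0628), and Etv4 without either of clone 2 (0.0509 and 0.0525). Summed libraries of each clone left Dppa2, Utf1 and Etv4 without a call (up to 0.0668). Of 3 tested genes of the 2-cell-like state, Zscan4c, Zscan4d and Gm8300, 0 were called by edgeR, and they summed to at most 3.49 CPM in any library.

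Genes of other lineages went in both directions. Of 16 tested trophectoderm genes 3 (18.8%, against 2.11% of all genes tested) were lower and 0 higher, with a median of -0.09. Cdx2, a homeobox factor needed for trophectoderm, stood at 28.9 and 22.3 CPM in WT, 2.30 and 1.46 CPM in clone 1, and 6.33 and 3.48 CPM in clone 2. Gata2 stood at 8.18 and 7.09 CPM in WT against 1.44 to 2.30 CPM, and Tead4 at 73.3 and 75.7 CPM against 53.7 to 60.1 CPM. The libraries of both clones lay below WT in all 3 genes. Of 10 tested endoderm genes Lrp2, the endocytic receptor megalin, was higher (10%) and Hnf4a lower (10%), against 4.25% and 2.11% of all genes tested. Lrp2 stood at 2.62 and 1.77 CPM in WT, 15.5 and 15.6 CPM in clone 1, and 13.1 and 12.6 CPM in clone 2 (2.69 ± 0.24, edgeR adjusted p 0.000477), and was called with any 1 library left out. Hnf4a stood at 11 and 12 CPM in WT, 5.55 and 5.14 CPM in clone 1, and 1.77 and 1.74 CPM in clone 2.

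Of 9 tested mesoderm and primitive streak genes 1 (11.1%) was higher and 1 (11.1%) lower, against 4.25% and 2.11% of all genes tested. Kdr, a receptor of VEGF, was the higher one (0.386 and 0.591 CPM in WT against 2.68 to 5.22 CPM). Kdr passed the filter only through the libraries labelled knockout, so the share of higher genes depends on the filter. The repressor gene Snai1 was the lower one (14.1 and 17.7 CPM against 6.19 to 9.51 CPM). Of 18 tested neural genes 4 (22.2%) were higher and 1 (5.56%) lower, against 4.25% and 2.11% of all genes tested, with a median of 0.41 in clone 1 and -0.08 in clone 2. The neurofilament gene Nefl stood at 5.25 and 5.39 CPM in WT, 15.0 and 13.7 CPM in clone 1, and 23.6 and 23.3 CPM in clone 2. Sox21 went from 2.55 and 1.55 CPM to between 6.98 and 13.8 CPM, while Stmn3, a microtubule regulator, went from 46.0 and 51.2 CPM down to 20.7 and 21.6 CPM in clone 1 and 11.9 and 9.09 CPM in clone 2. Col1a2 was the only fibroblast gene called, with 1 count over the WT libraries and 66 over the clones, a ratio of 34.9 (exact 95% counting interval 6.05 to 1399). Col1a2 too passed the filter only through the libraries labelled knockout. Without WT replicate 1 (0.0818 to 0.282) or replicate 2 (0.0524 to 0.294) none of Gata2, Cdx2, Tead4, Hnf4a, Kdr, Snai1, Nefl, Sox21, Stmn3 and Col1a2 was called by edgeR. Tead4 and Hnf4a were not called without either replicate of clone 2, with adjusted p of up to 0.0607, nor with the libraries of each clone summed (up to 0.0973).

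Of 24 tested ERK targets 5 (20.8%) were lower and 1 (4.17%) higher, with a median of -0.11. Of 34 tested Ras family members and regulators 4 (11.8%) were higher and 0 lower, with a median of 0.09, and of all genes tested 4.25% were higher and 2.11% lower. All cells were grown with the kinase inhibitors of 2i, so the ERK, Ras and Wnt lists were read only in their presence. Myc stood at 15.9 and 18.0 CPM in WT, 4.92 and 6.83 CPM in clone 1, and 8.11 and 7.99 CPM in clone 2. The ephrin receptor gene Epha4 stood at 219 and 217 CPM in WT against 135 to 168 CPM. Spry4, a feedback inhibitor of the pathway, stood at 20.3 and 18.8 CPM in WT against 9.41 to 12.4 CPM. In each of these genes no library of either clone reached WT. Spry2 and Ccnd1 were the other lower genes and Etv4 the higher one. In the Ras list, Rasal1, a GTPase activator that switches Ras off, stood at 7.48 and 6.13 CPM in WT, 15.1 and 18.3 CPM in clone 1, and 19 and 19.8 CPM in clone 2. The exchange factor gene Sos2 was at 5.01 and 3.91 CPM in WT against 9.41 to 13.8 CPM, its relative Sos1 had a log2 fold change of 0.41, and the Ras-like GTPase gene Mras was at 31.6 and 30.8 CPM in WT against 51.5 to 70.3 CPM.

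Of 21 tested BMP and Nodal genes 3 (14.3%, against 2.11% of all genes tested) were lower and 0 higher, with a median of -0.15. Besides Lefty2, these were Msx2 (11.9 and 9.23 CPM in WT against 3.24 to 5.29 CPM) and Id4 (13.8 and 15.9 CPM against 5.45 to 8.22 CPM), both targets of BMP. Of 16 tested genes of LIF and STAT3 signalling 1 (6.25%) was higher and 0 lower, against 4.25% and 2.11% of all genes tested. It was the kinase gene Jak1, at 50.4 and 52.0 CPM in WT against 67.5 to 87.1 CPM. Of 16 tested Wnt targets and TCF factors edgeR called 0, the lowest adjusted p being 0.0526 for Tcf7. Myc, Epha4, Spry4, Rasal1, Mras, Sos2, Msx2, Id4 and Jak1 were not called without WT replicate 1 (edgeR adjusted p 0.0526 to 0.251) or WT replicate 2 (0.0771 to 0.212), and all 9 were called without any single library of the clones. With the libraries of each clone summed, so that clones count as replicates, Spry4, Msx2 and Id4 were not called (up to 0.0563).

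Enzymes of branched-chain amino acid breakdown and targets of ATF4 were called about as often as all genes tested, of which 4.25% were higher and 2.11% lower. Of 30 tested enzymes 1 (3.33%) was higher, Pcca, a subunit of propionyl-CoA carboxylase, at 21.3 and 23.6 CPM in WT against 30.7 to 32.7 CPM (0.50 ± 0.11), and the median was 0.03. Of 39 targets of ATF4, the factor of the amino acid response, 1 (2.56%) was lower, with a median of 0.01 in the pooled comparison, -0.41 in clone 1 and 0.28 in clone 2. The summed level of these targets ran from 9150 to 9217 CPM in WT and from 7164 to 10415 CPM in the libraries labelled knockout. The one called was Cebpb, at 14.3 and 18.0 CPM in WT, 4.28 and 4.07 CPM in clone 1, and 6.67 and 8.38 CPM in clone 2. Of 34 glycolysis and hypoxia genes 3 (8.82%) were higher and 1 (2.94%), the enolase gene Eno1, was lower. Ero1l, an oxidase of the endoplasmic reticulum, stood at 113 and 98.9 CPM in WT against 136 to 181 CPM. Egln3, an oxygen-sensing prolyl hydroxylase that uses alpha-ketoglutarate, stood at 18.2 ± 1.25 CPM (SD, n = 2) in WT, 46.7 and 42.4 CPM in clone 1, and 25.8 and 31.7 CPM in clone 2. The hexokinase gene Hk2 had a log2 fold change of 0.33 ± 0.08. Of 23 cholesterol synthesis genes the sterol reductase gene Tm7sf2 alone was called, from 13.7 and 16.3 CPM to between 23.8 and 28.5 CPM. All 6 named genes of these lists lost their calls without WT replicate 1 (edgeR adjusted p 0.131 to 0.404) or WT replicate 2 (0.0979 to 0.293). Hk2 was also not called without the first replicate of clone 1 (0.0568), Egln3 without the second (0.0558), and Pcca and Hk2 without either of clone 2, at up to 0.0898. Pcca, Cebpb, Egln3 and Hk2 also lost their calls with the libraries of each clone summed (up to 0.0853).

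Of the cell cycle, p53, adhesion and interferon lists, that of adhesion held the most calls. Of 26 mitosis genes edgeR called 0, with a median of -0.13 and a lowest adjusted p of 0.0563 for Cdk1. Of 34 DNA replication genes Rrm2, a subunit of ribonucleotide reductase, was lower (422 and 418 CPM in WT against 297 to 321 CPM) and E2f1 higher (93.8 and 103 CPM against 121 to 134 CPM). Of 29 tested p53 targets and inhibitors of cyclin-dependent kinases, Cdkn2a and Cdkn2c were higher and Trp53inp1 lower. Of 29 tested adhesion and basement membrane genes 6 (20.7%) were higher and 1 (3.45%) lower, against 4.25% and 2.11% of all genes tested, with a median of 0.32. Cdh1, the epithelial cadherin, stood at 365 and 373 CPM in WT, 573 and 549 CPM in clone 1, and 508 and 505 CPM in clone 2 (0.53 ± 0.08, edgeR adjusted p 0.007). The other higher genes were integrins, Itga5, Itga7, Itgav, Itgb1 and Itgb3, with log2 fold changes of 0.36 (Itga5) or more. Vim, the filament protein vimentin, was the lower one, at 526 and 529 CPM in WT against 395 to 440 CPM. Of 14 tested interferon response genes Mx1 was higher, with 0 counts over the WT libraries and 40 over the clones, at least 7.05-fold higher by the floor of 3 counts over the group. Mx1 too passed the filter only through the libraries labelled knockout. Trp53inp1, Cdkn2c, Rrm2, E2f1, Cdh1, Vim, Itga5 and Mx1 were not called without WT replicate 1 (0.146 to 0.35) or WT replicate 2 (0.112 to 0.308). Only Rrm2 and Cdh1 of these 8 were called without any single library of the clones, and the adjusted p of the others then reached 0.0777. The same 6, Trp53inp1, Cdkn2c, E2f1, Vim, Itga5 and Mx1, were not called with the libraries of each clone summed (up to 0.101).

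**Figure D3:**
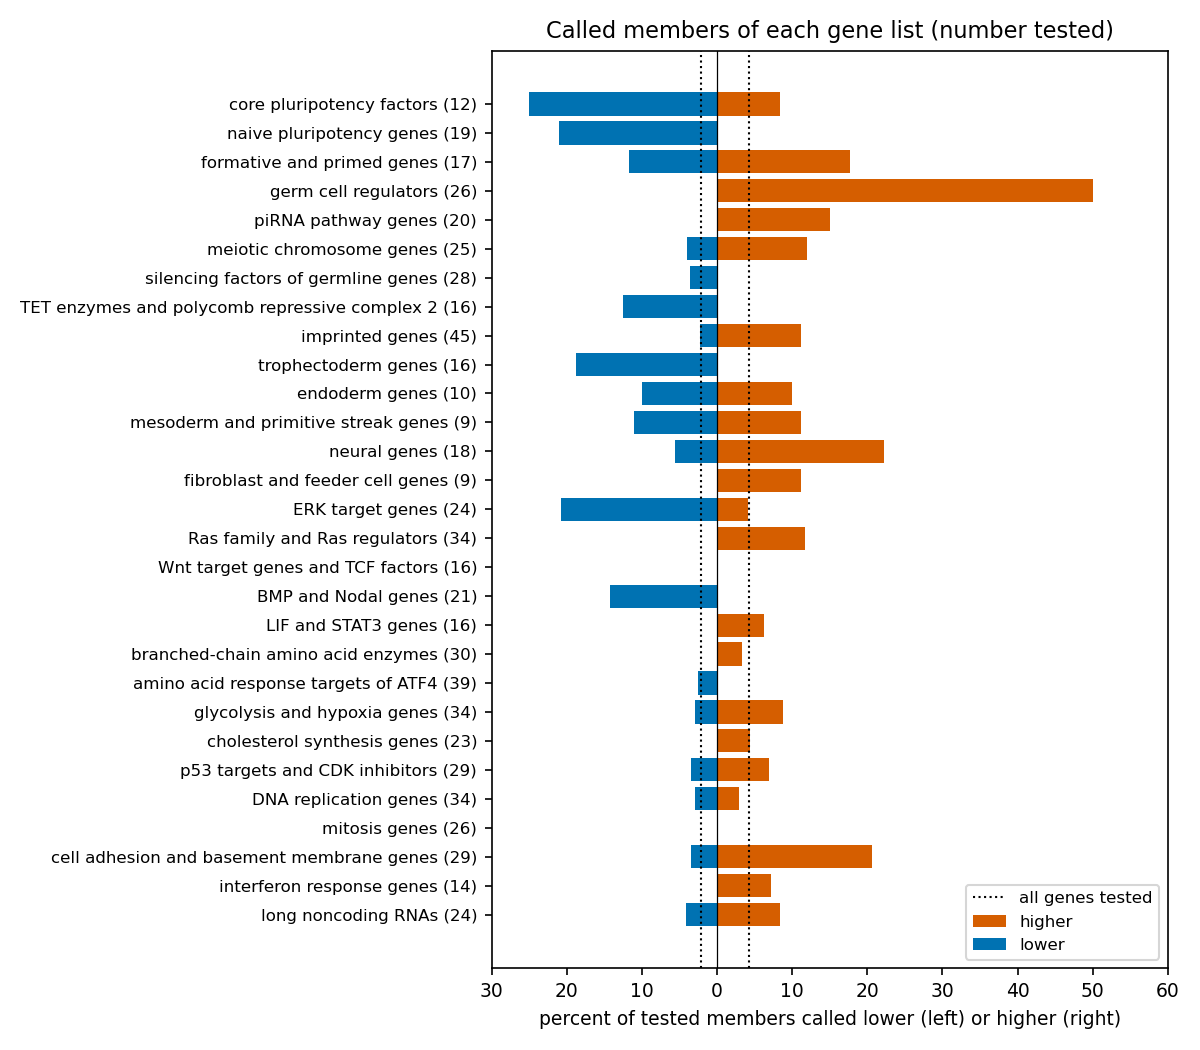
Bars give the percent of tested members of each gene list that were called higher (right) or lower (left), with the number tested in parentheses, for lists with at least 5 tested genes. Dotted lines mark the shares over all genes tested, 4.25% higher and 2.11% lower, and the germ cell regulators reach farthest to the right. The lists were chosen with earlier results of these data known.

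Among genes with a mean of 50 CPM or more, the largest rises after Tuba3a included Ptgr1, Sall1, Ninl, Bcam, Bahcc1 and Mras, with log2 fold changes from 0.96 to 1.27. Ptgr1, a reductase of prostaglandins, stood at 42.3 and 42.8 CPM in WT, 83.8 and 91.4 CPM in clone 1, and 117 CPM in both libraries of clone 2. Bcam, a receptor for laminin, stood at 100 and 117 CPM in WT, 200 and 238 CPM in clone 1, and 230 and 228 CPM in clone 2, and was called with any 1 library left out (1.04 ± 0.10). Ninl encodes a centrosomal protein and Bahcc1 a chromatin protein with a BAH domain. Ptgr1, Sall1, Ninl and Mras lost their calls without either WT library, and Bahcc1 without the first one, with edgeR adjusted p of up to 0.111.

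In the same class the largest falls were in Fam25c, Trh, Tbc1d13, Rpe, Utf1, Spata2, Hmga2 and Zbtb10. Trh, the precursor of thyrotropin-releasing hormone, stood at 160 and 178 CPM in WT, 65.4 and 75.2 CPM in clone 1, and 41.6 and 42.0 CPM in clone 2. Hmga2, an architectural chromatin protein, stood at 138 and 122 CPM in WT, 40.9 and 44.6 CPM in clone 1, and 76.7 and 73.9 CPM in clone 2. Fam25c stood at 93.2 and 106 CPM in WT, 13.9 and 30.6 CPM in clone 1, and 36.1 and 48.0 CPM in clone 2. Clone 2 was the lower clone in Trh and clone 1 in Hmga2 and Fam25c. Fam25c, Trh, Tbc1d13, Utf1 and Hmga2 were not called without WT replicate 1 (edgeR adjusted p 0.0607 to 0.304) or WT replicate 2 (0.0757 to 0.28), while Rpe, Spata2 and Zbtb10 were. The further settings that ended the call of Utf1 are given above.

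Some genes on the same side of WT in both clones differed several-fold between them. Fosl2, a partner of JUN in AP-1, stood at 3.01 and 3.62 CPM in WT, 7.85 and 8.36 CPM in clone 1, and 29.1 and 26.8 CPM in clone 2, a difference of 1.78 between the clones (log2, clone 2 minus clone 1, edgeR adjusted p 1.32e-06). Parm1, a mucin-like membrane protein, went the same way, with 3.09 and 2.29 CPM in WT, 10.1 and 9.90 CPM in clone 1, and 30.0 and 29.8 CPM in clone 2. BC067074 went the other way, from 3.86 and 4.36 CPM to 51.6 and 48.9 CPM in clone 1 and 19.8 and 20.6 CPM in clone 2. In Tbc1d13, a GTPase activator of Rab proteins, WT had 547 and 568 CPM, clone 1 had 161 and 178 CPM, and clone 2 had 288 and 275 CPM. Sohlh2, described above, differed by -1.58. For these genes the pooled log2 fold change is a mean of unequal clones. Without either WT library none of the 5 was called for genotype (edgeR adjusted p 0.0762 to 0.35), and Fosl2 was not called without either replicate of clone 2 (0.0546 and 0.0512) or with the libraries of each clone summed (0.0617).

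In the genes called in opposite directions the pooled log2 fold change mixes clones that lie on both sides of WT. Platr15, a noncoding RNA, stood at 1.54 and 1.77 CPM in WT, 0.872 and 0.690 CPM in clone 1, and 37.3 and 36.0 CPM in clone 2. The imprinted gene Peg10 stood at 44.0 and 46.1 CPM in WT, 27.4 and 29.3 CPM in clone 1, and 81.6 and 75.8 CPM in clone 2. In both of them WT lay between the clones. Atf5, a factor of the amino acid response, and Fam129a were below WT in clone 1 and above it in clone 2, and Pros1, the anticoagulant protein S, the reverse. The pooled log2 fold changes of these 5 genes ran from -0.05 to 0.40 except for Platr15 at 3.48, and their edgeR adjusted p from 0.205 to 0.951.

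**Figure D4:**
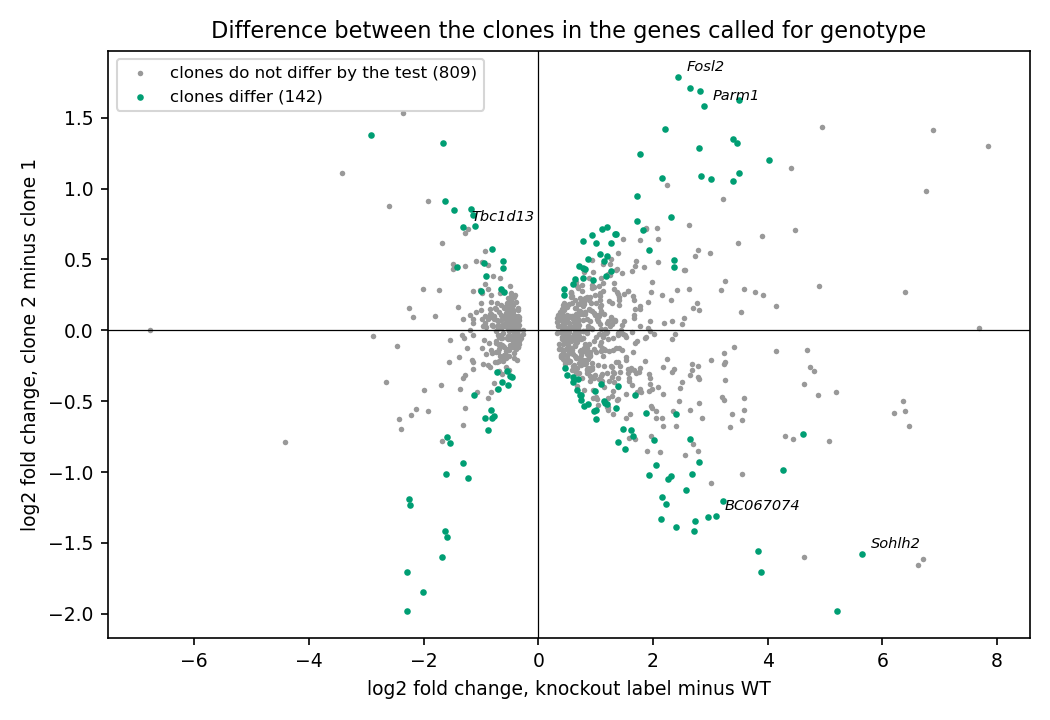
For the 951 genes called for genotype, the horizontal axis gives the log2 fold change against WT and the vertical axis the log2 fold change of clone 2 minus clone 1. The 142 genes in which the clones differ by the test lie above and below the line of equal clones, among them Fosl2 and Sohlh2.

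The share of called genes differed between chromosomes and stretches of them, which is given as a description with no test. Of genes on chromosome 1, 42 of 824 (5.10%) were lower, and on chromosome 2, 54 of 1163 (4.64%), against 2.11% of all genes, while on chromosome 19 1 of 456 was. On chromosome X 40 of 517 genes (7.74%) were higher, against 4.25%. Of 224 stretches of 10 Mb with at least 20 tested genes, 90 held no lower gene. The stretch of chromosome 2 from 160 to 170 Mb held 23 lower genes of 92 (25%), and its median log2 fold change was -0.32 in the pooled comparison, -0.30 in clone 1 and -0.46 in clone 2. It holds Spata2, Ptpn1, Sall4, Hnf4a, Snai1 and Cebpb, all given above as lower, and 6 of the 17 lower genes called with any 1 library left out. Those 6 are Spata2, Ptpn1, Sall4 and 3 chosen here after their values were seen, Rnf114, Slc9a8 and B4galt5, and their starts run from 167298444 (B4galt5) to 168748332 (Sall4). Spata2 and Rnf114 overlap in the annotation, so their reads cannot be fully separated without strand. The stretch of chromosome 1 from 180 to 190 Mb, which holds Lefty2, had 10 lower genes of 61 (16.4%), with a median of -0.28 pooled and -0.26 in each clone. Outside these stretches lay 283 of the 316 lower genes. The part of gene position in the falls of the genes named here was not tested.

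**Figure D5:**
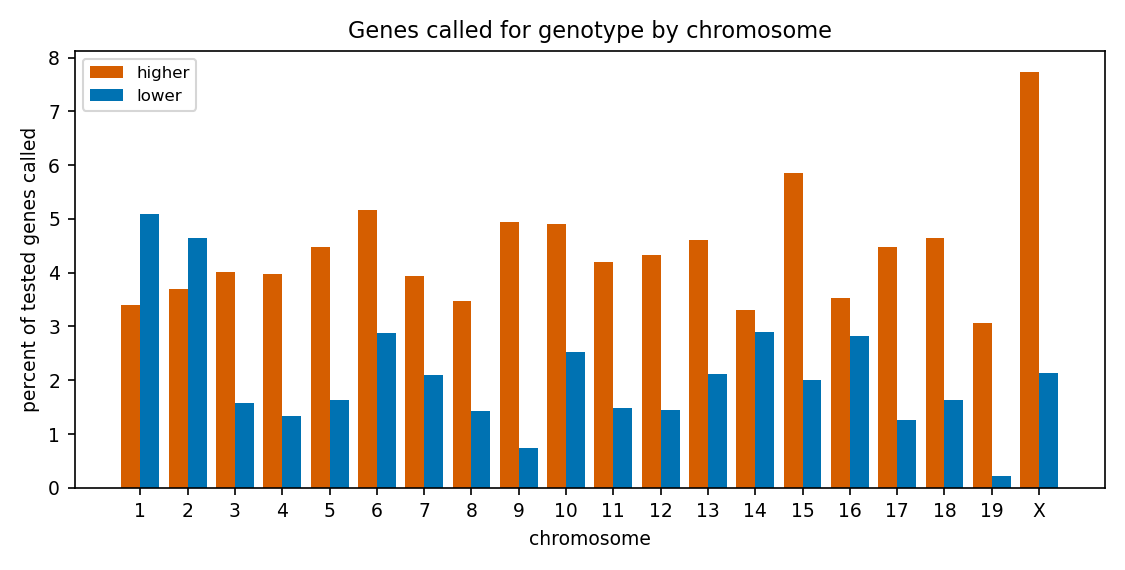
Percent of tested genes on each chromosome that were called in either direction for genotype, for chromosomes with at least 100 tested genes. Lower genes are most frequent on chromosomes 1 and 2, and higher genes on chromosome X at 7.74%.

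Around Bcat1 itself, a region looked at after the values were seen, 11 genes lying within 1 Mb were tested, Bcat1 included. Of these 2 were higher and 0 lower, against 4.25% and 2.11% of all genes tested. The higher ones were Lrmp, next to Bcat1, at 8.68 ± 0.16 CPM (SD, n = 2) in WT and 15.7 ± 2.07 CPM (n = 4) in the libraries labelled knockout (0.86 ± 0.18, edgeR adjusted p 0.0211), and Tuba3b, whose start lies 540 kb from the end of Bcat1. Tuba3b was called with any 1 library left out and Lrmp was not. In the libraries labelled knockout Tuba3b had 22 to 29 counts and its near-identical copy Tuba3a, elsewhere on chromosome 6, had 910 to 1844. The counts cannot separate these copies well, and the part of position near Bcat1 in these rises was not tested.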

How the data were processed

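Total RNA was freed of ribosomal RNA, per the labels' protocols. The values deposited by the authors are raw read counts per gene. The submitters' processing notes list DESeq2 1.18.1, HISAT2 2.1.0, HTSeq 0.9.1 and mm10 without roles. Annotation and strand setting were not given in the sources used here, so overlapping and antisense genes cannot be separated. Each file held 52535 genes and 5 summary entries (36.4% to 40.0% of reads), which were removed. Of 26926 genes with a count, 14946 passed filterByExpr on the 3 groups.

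Genotype was tested with edgeR 4.0.16 in R 4.3.3 (TMM, quasi-likelihood, two-sided, Benjamini-Hochberg over all genes at 0.05), both clones as 1 genotype. A second fit with 3 groups gave the clone contrasts. SE is the log2 fold change over the root of F. The fit was run on simulated counts drawn for each library separately, so that run does not cover libraries that share a clone. Alternatives were DESeq2 1.42.0, other scalings and filters, a minimum fold, a replicate block, the mean of the clone contrasts, summed clones and leaving out each library. Positions come from GENCODE M21 on GRCm38, promoters from RefSeq on GRCm38.p6, the first per symbol.

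The members and the 31 gene lists were chosen with earlier results of these data known. Named genes were Bcat1, Bcat2, the 10 largest rises and falls called in every fit with 1 library left out (mean of 1 CPM or more), the 8 largest with a mean of 50 CPM or more, the 5 and 6 that most differed between clones on one side and on opposite sides of WT, and up to 3 called genes of each list with the smallest p. Outside the lists, predicted genes, pseudogenes and small RNAs were passed over. Some genes that the rule takes are not reported here. The floor was 3 counts over a group, and intervals and floors cover counting error only. Replicates differed by more than sampling noise (chi-square per gene 3.27 to 8.79).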

Additional observations from a re-analysis of the deposited data

Results flagged for a closer look

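In 4 of 99 named genes 1 of the 4 libraries labelled knockout lay far from the other 3, by Dixon's test at the 95% level. Chance meets this level in about 1 in 20 groups, so the count is near what chance gives. The test also takes the libraries of both clones as 1 group. The first replicate of clone 1 was the lowest in Bcat2 (56.8 CPM) and in Sall4 (195 CPM). The first replicate of clone 2 was the lowest in Tdrd9 (1.94 CPM) and in Syce1 (7.6 CPM).

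In 36 of the named genes the clones differed by edgeR's test of clone 2 against clone 1, which called 14.3% of all genes tested. Some of them were named for the smallest p of this contrast, so the count is fixed in part by that choice. The values below are log2 fold changes of clone 2 minus clone 1. Those called in opposite directions against WT differed by 5.54 in Platr15, 1.83 in Atf5, -1.51 in Pros1, 1.47 in Peg10 and 1.15 in Fam129a.

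Among the genes higher than WT in both clones, clone 2 stood farther from WT in Fosl2 (1.78), Parm1 (1.58), Sox21 (0.80), Nefl (0.71), Sall1 (0.53), Ptgr1 (0.42), Ninl (0.38), Mras (0.35) and Etv4 (0.33). Clone 1 stood farther in Sohlh2 (-1.58), BC067074 (-1.31), Mov10l1 (-1.05), Sox4 (-0.78), Tuba3a (-0.73), Egln3 (-0.63), Zfp264 (-0.59) and Snhg11 (-0.46).

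Among the genes lower than WT in both clones, clone 2 was the lower clone in Hnf4a (-1.60), Utf1 (-1.04), Stmn3 (-1.01), Trh (-0.75), Dppa2 (-0.56) and Manba (-0.46). Clone 1 was the lower one in Cdx2 (1.38), Fam25c (0.92), Cebpb (0.85), Hmga2 (0.81), Tbc1d13 (0.73), Snhg14 (0.57), Grb10 (0.45) and Suz12 (0.27).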

How the results depend on the processing

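Against 635 higher and 316 lower genes, testing all genes with a count gave 1083 and 669, a minimum fold of 1.2 gave 335 and 126, the mean of both clone contrasts 1777 and 1449, and summed libraries of each clone 296 and 159. DESeq2 gave 484 lower genes. Leaving out 1 library gave 51 to 601 higher and 23 to 341 lower genes, the lowest counts coming without a WT library, which leaves 1 in that group. Called genes that also differ between the clones numbered 57 to 196 with 1 library left out, against 142. The share of higher genes among calls was 66.8%, and 71.7% with upper-quartile scaling. No gene called in the pooled comparison had the other sign under any setting, and other scalings moved the median of all genes by at most 0.03. The log2 fold change of Bcat1 lay between -0.04 and 0.03 under all settings and was never called.

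In libraries with the same replicate number the deviations from the group means correlated at 0.05 (WT and clone 1), -0.01 (WT and clone 2) and 0.13 (clone 1 and clone 2). Whether these libraries shared a batch was not tested. With the number as a replicate block 414 genes were called higher and 232 lower, and 633 of these 646 were among the 951. Of 91 named genes called, 15 lost the call with the block and 25 with the libraries of each clone summed. Low counts limit precision most in genes under 1 CPM, of which 2.69% were called, against 7.29% from 10 to 100 CPM.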

Other observations

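The genes called with any 1 library left out included more than the 10 largest rises and falls, and the values of the others, chosen by this criterion after the data were seen, are given here. Vwf, the clotting factor that carries factor VIII, had a log2 fold change of 2.33 ± 0.14 and Pla2g1b, a secreted phospholipase, of 2.68 ± 0.15. Cpe, a peptidase of hormone precursors, rose by 2.36, Sulf1, a sulfatase of heparan sulfate, by 2.36, Wls, which escorts Wnt proteins out of cells, by 2.65, and Pcolce, an enhancer of procollagen processing, by 0.90. Prdm1, a repressor needed for primordial germ cells, rose by 2.70 ± 0.22. Dsp, the desmosome protein desmoplakin, rose by 1.33 and Tgm1, a transglutaminase of skin, by 1.97.

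Other higher genes of the set were Smarcd3, a subunit of chromatin remodelling complexes (2.51), Pou2f3, a POU factor (1.15), Dpysl3, a cytoskeletal protein of neurons (2.32), Slc30a3, a zinc transporter (2.55), Adcy3, an adenylate cyclase (1.30), and Pcyt1b, an X-linked enzyme of phosphatidylcholine synthesis (1.94). Arfgef3, Arhgap44, Ccdc136, Man2b2, Mdfic, Gm13128 and Gm33027 completed them, beside those named in the report. Among the 17 lower genes, those not named in the report were Sccpdh (-0.92), Tns1, a focal adhesion protein (-0.79), and Gm10800 (-3.42).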
